A study of Mus musculus with 6 samples.

Results

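Smooth muscle contracts when calcium, bound to calmodulin, activates myosin light chain kinase and phosphorylated myosin pulls on actin filaments anchored in dense bodies. In the colon this apparatus belongs to the muscularis mucosae, the thin sheet at the base of the mucosa, to the thick muscularis propria beneath the submucosa, and to the walls of blood vessels. Many of the genes that encode it require serum response factor and its coactivator myocardin, and their transcripts are widely used as a gauge of how much muscle a piece of gut holds.

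A set of 37 genes of the smooth muscle contractile apparatus was read from expression arrays of mouse colon, and 36 of them were measured among the 22180 gene symbols that the tested part of the table covers. A gene was taken as measured where the platform annotation gave a transcript cluster (a set of probes for 1 locus) that single symbol. Where several clusters carried the symbol, as for Smtn alone among these genes, the cluster with the highest mean was used. Rbpms2, an RNA-binding protein of gut muscle, shared its clusters with another symbol and has no value here.

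The tissue, labelled as normal colonic mucosa, came from beside tumours of 6 male BALB/c mice, with 1 Affymetrix Mouse Gene 2.0 ST array per mouse. The groups were 4 wild-type mice (WT, Mthfd1S+/+) and 2 heterozygous Mthfd1S+/- mice, which are deficient in the synthetase activity of the folate enzyme MTHFD1, and the comparison asks what that deficiency changes in the mucosa. All 6 mice, WT included, had been injected into the peritoneum with the carcinogen azoxymethane (AOM, 6 mg/kg) and had then drunk 3% dextran sulfate sodium (DSS), an agent that injures the colonic epithelium, in 2 cycles of 4 days at weeks 1 and 4. They were killed at week 13. The line had been crossed for at least 10 generations to BALB/cAnN, the protocol gives an age of 3 months at the injection, and the age field gives 7 months. No untreated mice are part of the comparison, and the mice are numbered here as replicates in the labels. Values of single mice are given in that order, WT mice 1, 2, 3 and 4 before Mthfd1S+/- mice 1 and 2.

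Array medians were alike, from 5.48 to 5.53 on the log2 scale. Mthfd1, the targeted gene, averaged 7.63 ± 0.10 over the WT mice (SD, n = 4) and 7.79 ± 0.23 over the others (SD, n = 2). Whether the allele alters the transcript is not stated in the labels, and no genotype was checked by it. The tissue label was checked against 12 defining smooth muscle markers, all of which read above the array medians in every mouse: the lowest single reading was 7.803, for Mylk. Muscle markers were thus read in every sample labelled mucosa, and the labels do not say which layers were cut. The 20 measured markers of colonic epithelium had a median level of 11.4.

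Promoter sequence was set beside the expression values because a short element, the CArG box, is the binding site of serum response factor. It consists of a pair of C, 6 bases that are each A or T, and a pair of G, and it reads as the same pattern on either strand. RefSeq windows from 250 bases before to 50 bases after a gene's start (build GRCm38.p6) were found for 29 of the 37 genes. A CArG box lay in the window of 3 of the 29 genes (10.3%), namely Fhl1, Ldb3 and Myl9, against 1.81% of 27025 genes. With at least 5 of the 6 inner bases A or T, which includes the full box, there were 10 of 29 (34.5%) against 11.3%. The stretches below hold such boxes, in capitals, for Acta2, the best-known gene of the set, for Myl9 and Pcp4, which had the highest genotype differences in their role groups, and for Fhl1 and Ldb3, whose differences lay near 0.
Acta2, chr19:34255374-34255482, minus strand: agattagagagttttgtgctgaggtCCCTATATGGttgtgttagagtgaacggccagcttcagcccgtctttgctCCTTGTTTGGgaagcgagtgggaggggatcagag
Myl9, chr2:156775278-156775399, plus strand: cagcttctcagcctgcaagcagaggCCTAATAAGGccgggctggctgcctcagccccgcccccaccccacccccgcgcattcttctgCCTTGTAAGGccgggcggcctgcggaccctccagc
Pcp4, chr16:96467474-96467533, plus strand: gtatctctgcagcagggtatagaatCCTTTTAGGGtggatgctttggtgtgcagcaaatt
Fhl1, chrX:56779556-56779615, plus strand: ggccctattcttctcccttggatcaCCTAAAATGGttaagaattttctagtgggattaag
Ldb3, chr14:34588682-34588741, minus strand: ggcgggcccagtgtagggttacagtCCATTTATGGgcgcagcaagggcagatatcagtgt
The boxes of Acta2 began 84 and 34 bases before the start of transcription, those of Myl9 161 and 99 bases before it, and that of Pcp4 107 bases before it. A match of letters describes the sequence and is not evidence of binding. Genes with such a box in the window had a median genotype difference of 0.20, and the 18 measured genes with a window and no box had one of 0.24.

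As an average over the set, muscle transcripts spanned a wider range among the WT mice than the gap between the genotype means. Each gene's log2 value was centred on its mean over the 6 mice, and the 36 centred values were averaged in each mouse to give a muscle mean. It was -0.14, -0.25, -0.028 and 0.092 in WT, and -0.056 and 0.39 in Mthfd1S+/-. The ascending order was thus WT 2, WT 1, Mthfd1S+/- 1, WT 3, WT 4 and Mthfd1S+/- 2, so the groups overlapped: Mthfd1S+/- mouse 1 lay inside the WT range and only Mthfd1S+/- mouse 2 lay above it.

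The highest WT mouse exceeded the lowest by 0.35 on the log2 scale (1.27-fold), and over all 6 mice the gap was 0.64 (1.56-fold). The wider gap runs from a WT to a Mthfd1S+/- mouse. A range and a difference of means are unlike measures. The difference between the group means was smaller than the WT range but larger than the WT SD. WT averaged -0.083 ± 0.15 (SD, n = 4), against 0.17 ± 0.31 (SD, n = 2) for Mthfd1S+/-, a gap of 0.25 (1.19-fold). Of that difference, Mthfd1S+/- mouse 1 alone gave 0.027 above the WT mean and mouse 2 alone gave 0.47. The mouse identifiers carry a letter, A or B, whose meaning the labels do not state. Within letter A the single Mthfd1S+/- mouse exceeded the single WT mouse by 0.086, and within letter B the single Mthfd1S+/- mouse exceeded the mean of 3 WT mice by 0.45. In RNA from whole tissue, fewer muscle cells and less RNA per muscle cell cannot be told apart.

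**Figure D1:**
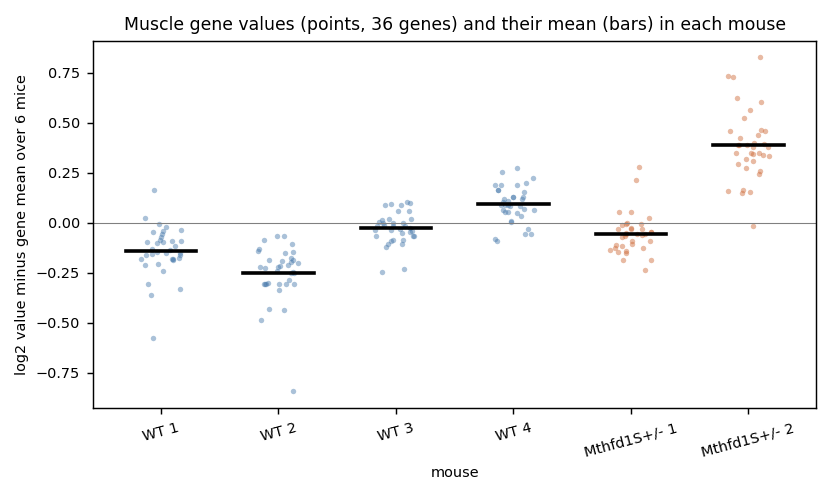
Log2 value of each of the 36 muscle genes minus that gene's mean over the 6 mice (points), by mouse, with the muscle mean of each mouse as a bar. The bars run from -0.25 in WT mouse 2 to 0.39 in Mthfd1S+/- mouse 2, and Mthfd1S+/- mouse 1, at -0.056, lies within the WT mice.

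Most genes were lowest and highest in the same mice, but the full order of the muscle mean was not shared by all. The Spearman correlation of a gene with the mean of the other muscle genes was 1 for 8 of 36 genes, with a median of 0.943 and a minimum of 0.371, for Ppp1r14a. Mthfd1S+/- mouse 2 had the highest of the 6 values for 34 of 36 genes, the exceptions being Ppp1r14a and Ldb3, whereas 19.3% of all 23521 tested clusters had their highest value in that mouse. WT mouse 2 was the lowest WT mouse for 30 genes, against 26.1% of all clusters, and WT mouse 1 was the lowest for another 5: Myl9, Tpm2, Hspb6, Casq2 and Nexn. WT mouse 4 was the highest WT mouse for 28 genes (26.9% of all clusters). Mthfd1S+/- mouse 1 lay within the WT range for 29 genes (59.3% of all clusters), above it for Hspb6, Pcp4, Cckar and Pdlim7, and below it for Tpm1, Jph2 and Fhl1.

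**Figure D2:**
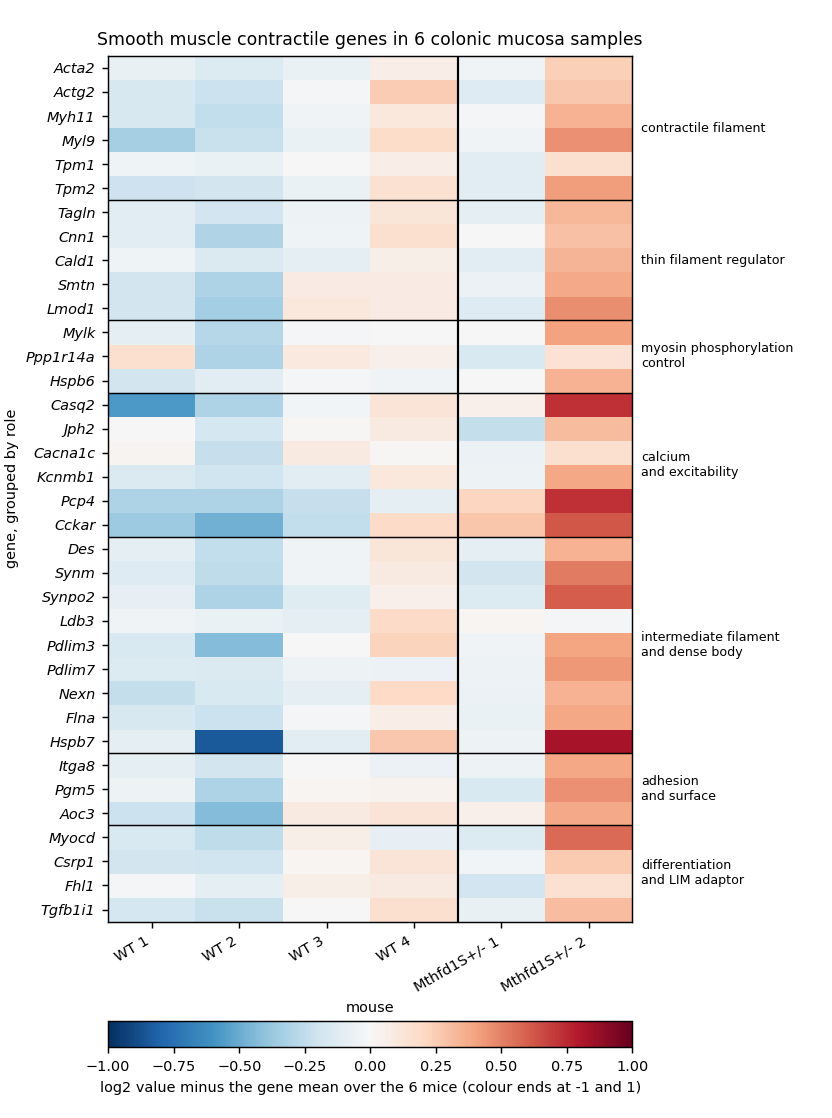
Log2 value minus the gene's mean over the 6 mice for each of the 36 muscle genes (one line of the map per gene, grouped by role) in each mouse (columns), blue below and red above the mean. The column of WT mouse 2 is blue for nearly every gene and that of Mthfd1S+/- mouse 2 red, while Mthfd1S+/- mouse 1 is pale except for red Pcp4 and Cckar and a few blue genes such as Jph2.

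Across the 6 mice, the Pearson correlation of a gene with the mean of the other muscle genes had a median of 0.946, from 0.302 for Ldb3 to 0.994 for Flna, the actin crosslinker filamin A. It was at least 0.8 for 32 of the 36 genes, while 6.19% of all tested clusters reached 0.8 with the muscle mean. The exceptions were Ldb3, Ppp1r14a at 0.568, Fhl1 at 0.726 and Cacna1c at 0.784. These points share arrays and tissue pieces, and the mice at the ends of the order weigh heavily. Without Mthfd1S+/- mouse 2 the median was 0.884 and 23 genes reached 0.8; without WT mouse 2 as well, over 4 mice, the median was 0.823 and 20 genes did.

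In the limma fit of genotype, 0 of the 36 genes passed an adjusted p of 0.05, as did 0% of the 23521 tested clusters, whose smallest adjusted p was 0.837. At an unadjusted p under 0.05, 3 genes were higher in Mthfd1S+/- mucosa (Pcp4, Cckar and Casq2) with 3.36% of all clusters higher at that level, and 0 were lower with 2.44% of all clusters. The groups did not overlap, with both Mthfd1S+/- mice above all WT mice, for 4 genes (Pcp4, Cckar, Hspb6 and Pdlim7) and for 7.96% of all clusters. By direction alone 34 of 36 genes were higher in Mthfd1S+/-, against 54% of all clusters. The median log2 difference was 0.24, from -0.026 to 0.71, with 0.012 over all clusters. The 95% interval of the difference included 0 for 33 genes. The median standard error (SE) of a difference was 0.14 for them and 0.11 over all clusters. Pcp4, Cckar and Casq2 were already known to differ in these arrays when the set was drawn up, so their place in it is no independent evidence. The limma p-values measure the spread between animals, each of which gave 1 array.

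**Figure D3:**
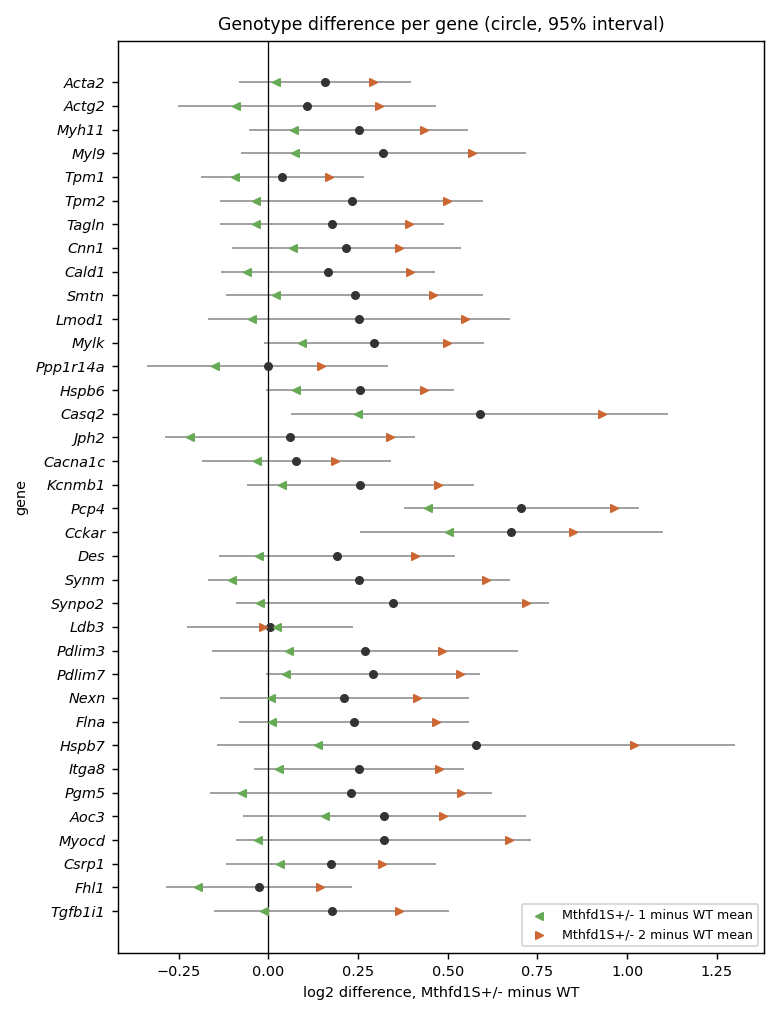
Log2 difference, Mthfd1S+/- minus WT, for each muscle gene (circle, with its 95% interval as a line), and the same for each Mthfd1S+/- mouse taken alone against the WT mean (triangles). For most genes the triangle of mouse 1 lies near 0 and that of mouse 2 well above it; the intervals of Casq2, Pcp4 and Cckar lie above 0, and for Pcp4 and Cckar both triangles do.

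The 6 genes of the contractile filaments themselves were all higher in Mthfd1S+/- by the group means, with a median difference of 0.19 and none at an unadjusted p under 0.05. Acta2 (cluster 17364098), the smooth muscle alpha-actin of vessels and gut wall, read 12.53, 12.46, 12.53 and 12.66 in WT and 12.57 and 12.84 in Mthfd1S+/-. Actg2 (cluster 17468183), the gamma-actin typical of gut muscle, read 11.67, 11.62, 11.82 and 12.08 in WT and 11.71 and 12.10 in Mthfd1S+/-. Both actins overlapped between groups, since Mthfd1S+/- mouse 1 lay among the WT mice, and Actg2 in WT mouse 4 came close to the highest value. The differences were 0.16 ± 0.10 (SE) for Acta2 and 0.11 ± 0.16 (SE) for Actg2. The coding sequences of the actins are closely related, so a probe of one may take up RNA of another, and their values are uncertain to that extent.

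Myh11 (cluster 17328368), the smooth muscle myosin heavy chain, read 11.51, 11.43, 11.64 and 11.78 in WT and 11.66 and 12.02 in Mthfd1S+/-, a difference of 0.25 ± 0.13 (SE). Myl9, the regulatory light chain that the kinase phosphorylates, read 11.36, 11.47, 11.62 and 11.88 in WT and 11.66 and 12.15 in Mthfd1S+/-, with the highest difference of the filament genes at 0.32 ± 0.17 (SE). Tpm1, a tropomyosin that many cell types make, read 10.12, 10.09, 10.16 and 10.22 in WT and 10.06 and 10.32 in Mthfd1S+/-, with the lowest difference at 0.039 ± 0.10 (SE). In each of these genes Mthfd1S+/- mouse 2 was highest and mouse 1 was below WT mouse 4. Tpm1 spanned only 0.26 over the 6 mice, the narrowest span of the set, and Tpm2 differed by 0.23.

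The 5 genes that regulate the thin filament were all higher by the means, with a median of 0.22 and differences from 0.17 to 0.25. Tagln, transgelin, an actin-binding protein of differentiated smooth muscle, read 11.14, 11.07, 11.21 and 11.38 in WT and 11.16 and 11.59 in Mthfd1S+/-. Cnn1, calponin, which restrains the myosin ATPase, read 12.12, 11.92, 12.18 and 12.38 in WT and 12.22 and 12.51 in Mthfd1S+/-. WT mouse 4 stood above Mthfd1S+/- mouse 1 in both, and the differences were 0.18 ± 0.14 (SE) and 0.22 ± 0.14 (SE).

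Cald1, caldesmon, another brake on actin-activated myosin, read 9.94, 9.83, 9.89 and 10.03 in WT and 9.86 and 10.32 in Mthfd1S+/-, and had the lowest difference of these regulators at 0.17 ± 0.13 (SE). Lmod1, leiomodin, which nucleates actin filaments, read 8.03, 7.88, 8.32 and 8.30 in WT and 8.08 and 8.68 in Mthfd1S+/-, the highest difference at 0.25 ± 0.18 (SE). For Lmod1 the lower Mthfd1S+/- mouse sat beside the lower WT mice. Smtn, smoothelin, differed by 0.24.

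The 3 genes grouped under myosin phosphorylation and relaxation did not move as one. Mylk, the myosin light chain kinase, read 7.996, 7.803, 8.08 and 8.10 in WT and 8.09 and 8.49 in Mthfd1S+/-, a difference of 0.30 ± 0.13 (SE) with a limma p of 0.057 before and 0.837 after adjustment. Ppp1r14a, the inhibitor CPI-17 of myosin phosphatase, read 8.18, 7.71, 8.12 and 8.07 in WT and 7.87 and 8.17 in Mthfd1S+/-. Its highest value was in WT mouse 1, its group means differed by -0.0017 ± 0.15 (SE), and its range of 0.47 lay wholly within WT. Hspb6, a small heat shock protein linked to relaxation, differed by 0.26, and both Mthfd1S+/- mice, at 8.64 and 8.998, lay above the WT range of 8.46 to 8.63, mouse 1 by a narrow margin.

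All 3 genes at an unadjusted p under 0.05 were among the 6 genes of calcium handling and excitability, whose median difference was 0.42. The 3 were known to differ when the set was drawn up, so neither their shared group nor its median is independent evidence. Pcp4 (cluster 17327539), a small calmodulin-binding protein of smooth muscle that is also made by neurons, read 7.74, 7.74, 7.81 and 7.95 in WT and 8.25 and 8.77 in Mthfd1S+/-. Both Mthfd1S+/- mice were above all WT mice, and the means were 7.81 ± 0.10 (SD, n = 4) against 8.51 ± 0.37 (SD, n = 2). The difference of 0.71 ± 0.14 (SE, 1.63-fold) was the largest of the set, with a limma p of 0.0010 before and 0.837 after adjustment. The exact two-sided permutation p over the arrays was 0.0667, the smallest that 15 splits of 6 arrays allow.

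Cckar (cluster 17448135), the receptor through which cholecystokinin acts on gut muscle and nerve, read 5.63, 5.50, 5.74 and 6.18 in WT and 6.27 and 6.61 in Mthfd1S+/-. The groups did not overlap, but WT mouse 4 came close to Mthfd1S+/- mouse 1. The difference was 0.68 ± 0.18 (SE, 1.60-fold), with a limma p of 0.0059 before and 0.837 after adjustment. Casq2 (cluster 17401041), calsequestrin, which stores calcium in the sarcoplasmic reticulum, read 5.19, 5.46, 5.74 and 5.90 in WT and 5.82 and 6.50 in Mthfd1S+/-. Here WT mouse 4 exceeded Mthfd1S+/- mouse 1, WT mouse 1 stood lowest, and the difference of 0.59 ± 0.23 (SE) had a limma p of 0.032 before and 0.837 after adjustment.

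None of the other 3 calcium genes had an unadjusted p under 0.05. Cacna1c, the pore of the L-type calcium channel, read 7.32, 7.06, 7.38 and 7.30 in WT and 7.24 and 7.45 in Mthfd1S+/-, a difference of 0.078 ± 0.11 (SE). Jph2, junctophilin, which holds the reticulum to the cell membrane, read 7.18, 7.005, 7.20 and 7.27 in WT and 6.94 and 7.50 in Mthfd1S+/-. The Mthfd1S+/- mice were the lowest and the highest of the 6 for Jph2, and the means differed by 0.060 ± 0.15 (SE). Kcnmb1, the beta subunit of the calcium-activated potassium channel of smooth muscle, differed by 0.26.

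The 9 genes of intermediate filaments and dense bodies were all higher by the means, with a median of 0.25 and a range from 0.0046 to 0.58. Des, desmin, the intermediate filament of muscle, read 11.77, 11.61, 11.82 and 11.98 in WT and 11.77 and 12.20 in Mthfd1S+/-, a difference of 0.19 ± 0.14 (SE). Hspb7, a small heat shock protein of muscle, read 8.38, 7.63, 8.37 and 8.75 in WT and 8.42 and 9.30 in Mthfd1S+/-. It spanned 1.67 over the 6 mice, the widest span of the set, of which 1.12 lay between WT mice 2 and 4, so that its difference of 0.58 ± 0.32 (SE) had a limma p of 0.103 before and 0.861 after adjustment.

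Ldb3, a PDZ and LIM domain protein best known from the Z discs of striated muscle, read 6.25, 6.22, 6.20 and 6.47 in WT and 6.31 and 6.27 in Mthfd1S+/-. It was the only gene of the set that was higher in Mthfd1S+/- mouse 1 than in mouse 2, and its means differed by 0.0046 ± 0.10 (SE). Pdlim7, another PDZ and LIM protein, read from 7.98 to 8.06 in WT and 8.07 and 8.56 in Mthfd1S+/-, without overlap, though mouse 1 was only just above the highest WT mouse. Synm (synemin), Synpo2 (an actin bundler), Pdlim3, Nexn and Flna differed by 0.25, 0.35, 0.27, 0.21 and 0.24.

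Among the 3 adhesion and surface genes the median difference was 0.25. Aoc3, the amine oxidase of smooth muscle and endothelial surfaces, read 8.26, 8.03, 8.56 and 8.59 in WT and 8.52 and 8.85 in Mthfd1S+/-, a difference of 0.32 ± 0.17 (SE). Pgm5, aciculin, a protein of muscle adhesion sites, read 9.76, 9.51, 9.84 and 9.85 in WT and 9.67 and 10.28 in Mthfd1S+/-, a difference of 0.23 ± 0.17 (SE). In both, Mthfd1S+/- mouse 1 fell within the WT range. Itga8, an integrin alpha chain of smooth muscle and mesenchyme, differed by 0.25.

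The 4 measured genes of differentiation and LIM adaptors had a median difference of 0.18. Myocd, myocardin, the coactivator that switches on the contractile genes, read 7.62, 7.52, 7.83 and 7.69 in WT and 7.64 and 8.34 in Mthfd1S+/-. Mthfd1S+/- mouse 2 stood apart and mouse 1 lay among the WT mice, with a difference of 0.32 ± 0.18 (SE). Fhl1, a LIM-only protein of muscle, read 8.74, 8.68, 8.82 and 8.85 in WT and 8.58 and 8.92 in Mthfd1S+/-, so that the Mthfd1S+/- mice again took both ends and the means differed by -0.026 ± 0.11 (SE). Csrp1 and Tgfb1i1 (Hic-5), both LIM adaptors, differed by 0.17 and 0.18.

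The sign of a single gene's difference often rested on Mthfd1S+/- mouse 2. Against the WT mean, mouse 1 alone was higher for 20 of 36 genes with a median of 0.016, near the share of all clusters (55.8%). Mouse 2 alone was higher for 35 of 36 with a median of 0.46, against 51.1% of all clusters. Without mouse 2, 16 genes were lower in Mthfd1S+/- than in WT. Fhl1 and Ppp1r14a were so in all mice as well, and the others were Actg2, Tpm1, Tpm2, Tagln, Cald1, Lmod1, Jph2, Cacna1c, Des, Synm, Synpo2, Pgm5, Myocd and Tgfb1i1. In that fit 1 gene had an unadjusted limma p under 0.05, with 5.74% of all clusters. Without mouse 1, 25 genes did, with 8.21% of all clusters, and without WT mouse 4, 8 did, with 6.97%. With 1 Mthfd1S+/- mouse left, that mouse is assumed to vary like the WT mice, so these p-values rest on the spread within WT. In all of these fits 0 genes passed the adjusted threshold.

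How much a gene moved for a given change in the other muscle genes varied. The slope of a gene on the mean of the others over the 6 mice was 2.42 for Hspb7, 1.87 for Casq2, 1.73 for Cckar and 1.58 for Pcp4, and it was 0.38 for Tpm1 and 0.13 for Ldb3. A slope of 1 would mean that the gene moved as much as the rest, and Myh11, at 0.94, Flna, at 0.96, and Des, at 0.92, lay near it. The span of a gene was only weakly related to its mean level over the 36 genes (Pearson r -0.278, Spearman rho -0.181), which share arrays and are not independent.

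Subtracting the mean of the other 35 muscle genes in the same mouse, with every gene centred, gave each gene's value relative to the rest. The subtraction treats every gene as having a slope of 1. A gene that follows the rest with a steeper or shallower slope therefore reads high or low in Mthfd1S+/- mouse 2, where the muscle mean was highest. Pcp4 then read -0.17, -0.056, -0.21 and -0.19 in WT and 0.27 and 0.35 in Mthfd1S+/-. Cckar read -0.22, -0.24, -0.23 and 0.098 in WT and 0.34 and 0.24 in Mthfd1S+/-. Relative to the other muscle genes, both were higher in both Mthfd1S+/- mice than in all WT mice, including mouse 1, whose muscle mean lay within WT. No test was made of these relative values, which use the same contrast.

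Casq2 read -0.45, -0.057, -0.00096 and 0.038 in WT and 0.11 and 0.36 in Mthfd1S+/- on this relative scale, also without overlap and with WT mouse 1 lowest. Ldb3 read 0.11, 0.19, -0.062 and 0.099 in WT and 0.081 and -0.41 in Mthfd1S+/-, low in Mthfd1S+/- mouse 2, where the other genes were high. Ppp1r14a read 0.31, -0.054, 0.13 and -0.045 in WT and -0.096 and -0.25 in Mthfd1S+/-, with both Mthfd1S+/- mice below all WT mice. The same held on this scale for Actg2, Tagln, Des, Tpm1, Jph2 and Fhl1. These genes and Ppp1r14a all had slopes under 1, from 0.38 for Tpm1 to 0.92 for Des. The part of slope in their low values was not tested. Margins could be narrow, as for Des at -0.036 and -0.042 in Mthfd1S+/- with a WT minimum of -0.0098. How often clusters outside the set separate in this way was not counted. Myh11 stayed between -0.038 and 0.044 in all 6 mice.

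**Figure D4:**
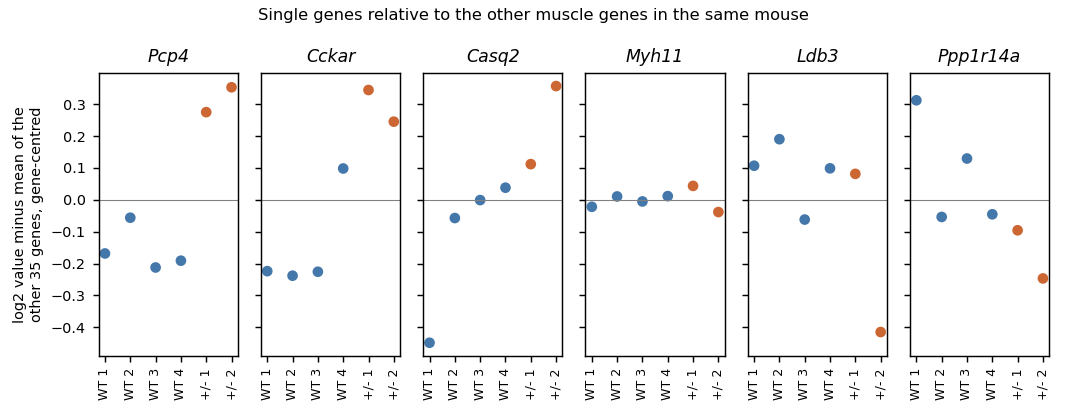
Log2 value of 6 muscle genes minus the mean of the other 35 muscle genes in the same mouse, all genes centred over the 6 mice (blue WT, orange Mthfd1S+/-). Pcp4 and Cckar are higher in both Mthfd1S+/- mice than in all WT mice, Myh11 stays near 0, and Ldb3 drops to -0.41 in Mthfd1S+/- mouse 2.

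As a mean, other genes of contraction moved with the set, though single genes were mixed. Of 54 further genes of signalling, adhesion and calcium handling in smooth muscle, 50 were measured, 40 were higher in Mthfd1S+/- and 10 lower, with a median of 0.12. At an unadjusted p under 0.05 there were 2 higher and 0 lower, with 3.36% and 2.44% of all clusters. By direction alone 54% of all clusters were higher, and these shares hold for the lists below as well. The mean of the 50 genes per mouse was -0.068, -0.16, 0.023 and 0.026 in WT and -0.047 and 0.22 in Mthfd1S+/-. It correlated with the muscle mean at 0.983 over the 6 mice. Srf, which encodes serum response factor, differed by -0.060 and correlated with the muscle mean at 0.295. Correlations were negative for Mrtfa (-0.437), Pdlim5 (-0.416), Mrtfb (-0.394) and Myl6 (-0.067), and low for Hdac9 (0.113) and Gata6 (0.117). Fbxo32, a ubiquitin ligase of muscle, read 8.68, 8.73, 9.02 and 8.98 in WT and 9.16 and 9.48 in Mthfd1S+/-, without overlap, a difference of 0.47 ± 0.14 (SE) with a limma p of 0.0083 before and 0.837 after adjustment. Tacr2, the neurokinin receptor of colonic muscle, read 8.49, 8.29, 8.73 and 8.78 in WT and 8.76 and 9.30 in Mthfd1S+/-, a difference of 0.46 ± 0.18 (SE). Mthfd1S+/- mouse 1 was just below WT mouse 4 for Tacr2.

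The mean of the markers of interstitial cells of Cajal, and that of enteric neurons and glia, ran in the same order of mice as the muscle mean, though not every marker did. For interstitial cells of Cajal, the pacemakers of gut muscle, 9 of 9 markers were measured, 5 higher and 4 lower with a median of 0.036, and the marker mean was -0.11, -0.19, 0.014 and 0.13 in WT and -0.022 and 0.17 in Mthfd1S+/-. Kit, the receptor that defines these cells, read 8.45, 8.50, 8.80 and 9.16 in WT and 8.75 and 9.29 in Mthfd1S+/-, so WT mouse 4 and Mthfd1S+/- mouse 2 were high, and it correlated with the muscle mean at 0.928. Elovl6 (-0.667), Ano1, their chloride channel (-0.299), and Thbs4 (-0.178) ran against it. For enteric neurons and glia, 18 of 20 markers were measured, 16 higher and 2 lower with a median of 0.26. At an unadjusted p under 0.05, 5 markers were higher and 0 lower, with 3.36% and 2.44% of all clusters. The mean of the 18 markers was -0.22, -0.27, 0.038 and 0.11 in WT and 0.031 and 0.31 in Mthfd1S+/-.

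The neuronal and glial mean correlated with the muscle mean at 0.950 over the 6 mice, at 0.939 without Mthfd1S+/- mouse 2, and at 0.889 without WT mouse 2 as well. Single markers did not all follow the muscle mean. Correlations with it were 0.070 for Cartpt, 0.177 for Chat, 0.436 for Elavl3 and 0.628 for Gfap. They were 0.930 for Nos1 and 0.907 for Prph. Cartpt, highest in Mthfd1S+/- mouse 1, had the smallest unadjusted limma p of the list, and Chat and Elavl3 were lower in Mthfd1S+/-. Nos1, the synthase of inhibitory motor neurons, read 5.90, 5.67, 6.12 and 6.11 in WT and 6.16 and 6.47 in Mthfd1S+/-, and Prph, peripherin, 5.69, 5.68, 5.93 and 6.49 in WT and 6.30 and 6.74 in Mthfd1S+/-. In both, WT mice 1 and 2 were lowest and Mthfd1S+/- mouse 2 highest, with differences of 0.36 ± 0.15 (SE) and 0.57 ± 0.23 (SE). These values stand beside Pcp4 and Cckar, which neurons also make, and the part of neurons in their readings was not tested.

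**Figure D5:**
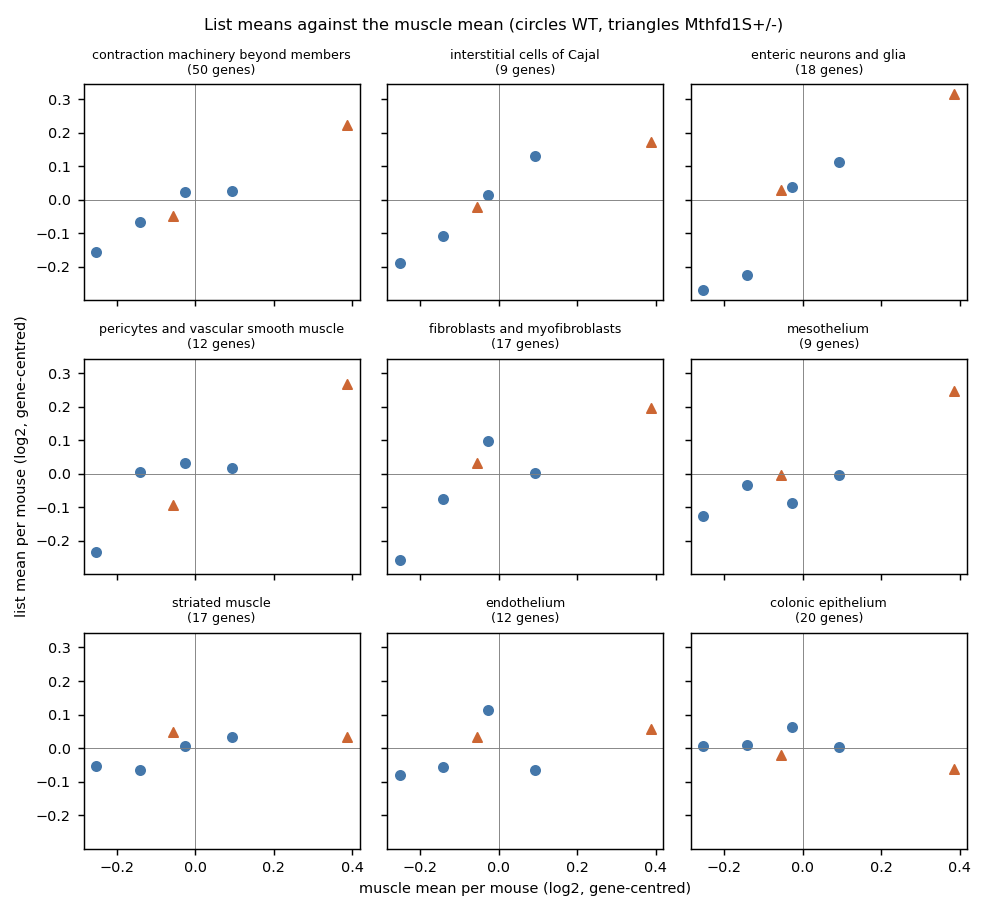
Mean centred log2 value of 9 other gene lists (vertical axes) against the muscle mean (horizontal axes) in the 6 mice, circles for WT and triangles for Mthfd1S+/-. The lists of contraction genes, interstitial cells of Cajal and enteric neurons and glia climb with the muscle mean through all 6 mice, while colonic epithelium and striated muscle stay within a narrow band.

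Markers of pericytes and vascular smooth muscle, of connective tissue and of the outer surface also correlated with the muscle mean over the 6 mice. Their correlations were lower once the mice at both ends were left out. Without Mthfd1S+/- mouse 2 alone they were 0.745 for pericytes and vascular smooth muscle, 0.790 for fibroblasts and myofibroblasts and 0.695 for mesothelium. Whether these correlations differ between lists was not tested. Pericyte and vascular smooth muscle markers (12 of 13 measured, 11 higher and 1 lower, median 0.15) ranged from -0.23 to 0.032 in WT and from -0.093 to 0.27 in Mthfd1S+/-, with a correlation of 0.915 over 6 mice and 0.221 without Mthfd1S+/- mouse 2 and WT mouse 2. Rgs5, their leading marker, differed by 0.37 ± 0.16 (SE) with a limma p of 0.049 before and 0.837 after adjustment. Fibroblast and myofibroblast markers (17 of 17 measured, 15 higher and 2 lower, median 0.12) ranged from -0.26 to 0.099 in WT and from 0.033 to 0.20 in Mthfd1S+/-, with correlations of 0.852 and 0.382. Lum, Mfap4 and Sfrp1, all higher, were the 3 with an unadjusted p under 0.05, with 3.36% of all clusters higher at that level.

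Mesothelium, which covers the outer face of the gut, had 9 of 10 markers measured, 7 higher and 2 lower with a median of 0.21. Its mean ranged from -0.13 to -0.0018 in WT and was -0.0032 and 0.25 in Mthfd1S+/-, and it correlated with the muscle mean at 0.927, and at 0.247 without Mthfd1S+/- mouse 2 and WT mouse 2. Gpm6a, Msln and Upk3b were higher at an unadjusted p under 0.05, with 3.36% of all clusters higher at that level. The median level of the 9 markers, 5.33, was below the array medians, and Msln read from 4.78 to 5.16. Such low values cannot be told from background. Krt19 averaged 11.63 in WT and 11.49 in Mthfd1S+/- and ran against the muscle mean (-0.846). Upk3b, a uroplakin, read 5.57, 5.597, 5.68 and 5.68 in WT and 5.73 and 6.50 in Mthfd1S+/-, so that mouse 2 alone stood out. Endothelium (12 of 12 measured, 5 higher and 7 lower, median -0.0082) ranged from -0.081 to 0.11 in WT and was 0.032 and 0.057 in Mthfd1S+/-. Its correlation with the muscle mean was 0.450 over the 6 mice, and -0.091 without Mthfd1S+/- mouse 2 and WT mouse 2.

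Colonic epithelium moved the other way by direction: of 20 markers measured, 4 were higher and 16 lower with a median of -0.063 and 0 at an unadjusted p under 0.05. Its mean ranged from 0.0035 to 0.064 in WT and was -0.019 and -0.063 in Mthfd1S+/-, so both Mthfd1S+/- mice were below all WT mice. That mean correlated with the muscle mean at -0.593 over the 6 mice, at 0.119 without Mthfd1S+/- mouse 2, and at 0.018 without WT mouse 2 as well. Vil1, villin of the brush border, read 11.05, 10.90, 10.87 and 10.82 in WT and 10.84 and 10.57 in Mthfd1S+/-. Single epithelial markers were mixed over the 6 mice. Epcam (-0.963), Lgals4 (-0.949) and Vil1 (-0.875) ran against the muscle mean, while Agr2 (0.794), Muc2 (0.784), Tff3 (0.742) and Cldn3 (0.660) ran with it. Striated muscle, with 17 markers measured, differed by a median of 0.042 and by 0.060 in its mean, with none at an unadjusted p under 0.05. Leukocyte markers (14 of 15 measured, 5 higher and 9 lower) had a median of -0.0063. The part of the amount of muscle wall, nerve or outer surface in each sample in the genotype differences of the muscle genes was not tested.

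Among 4076 other clusters with a single symbol and an SD over the 6 mice of at least 0.2, those most like the muscle mean were Sh3bgr (Pearson r 0.999), Slc24a3 (0.995), Marveld1 (0.993), Plcl1 (0.992), P3h2 (0.992), Foxp2 (0.991), Mxra7 (0.991), Rtn2 (0.991), Slco3a1 (0.991) and Fibin (0.990), over 6 mice. Sh3bgr read 6.17, 6.04, 6.30 and 6.46 in WT and 6.29 and 6.81 in Mthfd1S+/-. Slc24a3, a sodium, calcium and potassium exchanger, read 7.57, 7.32, 7.68 and 7.93 in WT and 7.67 and 8.34 in Mthfd1S+/-. Each ran in the same order of mice as the muscle mean. Those that ran most against it, leaving out 1 cluster that is not named because of its gene class, were Coro2a (-0.980), Phlda1 (-0.980), Xrcc3 (-0.977), Pdlim2 (-0.968) and Sh3kbp1 (-0.967). Phlda1 read 8.16, 8.38, 8.02 and 7.72 in WT and 8.08 and 7.49 in Mthfd1S+/-, and Coro2a 9.39, 9.43, 9.29 and 9.19 in WT and 9.32 and 8.77 in Mthfd1S+/-, both lowest in the mouse with the highest muscle mean. With 6 points and the best of 4076 clusters picked, such correlations describe these mice only.

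The 37 genes lie on 15 chromosomes in the RefSeq annotation. Lmod1 and Csrp1, on chromosome 1 with 3 protein-coding genes between them, were the only neighbours, and they ran alike with differences of 0.25 and 0.17.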

How the data were processed

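The authors deposited 1 log2 value per transcript cluster and array. Per the submitters' processing notes, Affymetrix Expression Console was used; which version, algorithm and genome build is not given in the sources used here. Values ran from 1.06 to 13.5, from which the log2 scale was read. Of 41345 clusters, 23521 had 1 platform symbol and were tested, 1814 had several and 16010 none. Detection calls were not used here, so low values cannot be told from background. A change common to all genes cannot be seen where normalization removed it.

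The genotype test was limma (version 3.58.1, R 4.3.3; lmFit and eBayes, two-sided, no covariate), adjusted by Benjamini-Hochberg over all tested clusters; the steps were checked on simulated data. The number of arrays limits precision. Intervals are 95%. Alternatives changed scaling, filter, moderation, covariates and arrays. The genes, lists and naming rule (well-known contractile genes, the extremes of each role group, up to 4 genes of each other list) were chosen with earlier results of these data known.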

Additional observations from a re-analysis of the deposited data

Results flagged for a closer look

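In 50 sets of 4 WT values (36 genes and 14 list means), 3 held a mouse far from the other WT mice, where chance puts about 1 in 20 sets. WT mouse 2 had a pericyte and vascular smooth muscle mean of -0.23, with the other WT mice from 0.0067 to 0.032. WT mouse 3 had an endothelial mean of 0.11, with the others from -0.081 to -0.056. WT mouse 3 also had a colonic epithelium mean of 0.064, with the others from 0.0035 to 0.0099. None of the 36 muscle genes was among them.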

How the results depend on the processing

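With 6 arrays, 2 of them Mthfd1S+/-, only large differences can pass: 0 clusters passed the adjusted threshold in the main limma fit or any alternative, where 1363 clusters had an unadjusted p under 0.05; the smallest adjusted p over all alternatives was 0.062. The count of muscle genes at an unadjusted p under 0.05, 3 in the main fit, was 5 without the dimmest clusters (with 6.05% of all clusters, against 5.79% in the main fit), 13 with the identifier letter as a covariate (7.83%), 20 in identifiers of letter B alone (7.38%; 1 Mthfd1S+/- mouse, assumed to vary like the WT mice), 1 of 34 without Pcp4 and Cckar and 0 of 12 for the defining markers alone; leaving out 1 mouse gave 1 to 25. Whether the numbers shared by WT and Mthfd1S+/- mice 1 and 2 pair the animals is not known. Correlations of their deviations were 0.117 and -0.044. With 2 Mthfd1S+/- mice the crossed pairs only mirror these values, so they cannot decide it. Mice of the same number, 1 or 2, also share the identifier letter. The fit with the replicate block gave 18 such genes (9.91% of all clusters) and a muscle mean difference of 0.36. In letter B alone the median difference was 0.43 and the muscle mean difference 0.45. Leaving out 1 mouse gave 20 to 35 genes higher (51.1% to 55.8% of all clusters), a median of 0.016 to 0.46, a muscle mean difference of 0.027 to 0.47 and a WT range of 0.23 to 0.35. The cause of these shifts was not tested. With arrays centred on their medians, the median difference of all clusters was -0.015 rather than 0.012, a shift that every list shares, and 44.7% rather than 54% of all clusters and 33 of 36 muscle genes were higher.

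Of 345 differences of named genes under the alternatives, 318 kept their sign and 27 reversed. Leaving out 1 mouse, the difference ran from -0.090 to 0.31 for Actg2, -0.034 to 0.39 for Tagln, -0.027 to 0.41 for Des, -0.029 to 0.67 for Myocd, -0.030 to 0.19 for Cacna1c, -0.092 to 0.17 for Tpm1, -0.045 to 0.55 for Lmod1, -0.060 to 0.39 for Cald1, -0.22 to 0.34 for Jph2, -0.075 to 0.54 for Pgm5, -0.15 to 0.15 for Ppp1r14a, -0.024 to 0.068 for Ldb3 and -0.20 to 0.15 for Fhl1. Ppp1r14a was 0.071 with the replicate block and 0.20 in letter B alone. Ldb3 was -0.023 with arrays centred on their medians, -0.017 after quantile normalization and -0.027 in letter B alone. Fhl1 was 0.037 with the replicate block, 0.014 with the letter as a covariate and 0.14 in letter B alone.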

Other observations

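Some markers of other cells ran opposite to the muscle genes. The list of 8 cardiac muscle genes was mixed, with 5 higher and 3 lower by the means and a median difference of 0.072. At an unadjusted p under 0.05, 1 was higher (Myl4) and 1 lower (Myl7), with 3.36% and 2.44% of all clusters. Nppa (0.782), Tnnt2 (0.653) and Actc1 (0.506) correlated positively with the muscle mean. Myl7, an atrial myosin light chain, read 7.44, 6.94, 6.58 and 6.03 in WT and 6.33 and 5.51 in Mthfd1S+/-, and correlated with the muscle mean at -0.878 over the 6 mice. Ly6g, a surface protein of neutrophils, read 10.38, 9.93, 9.48 and 9.04 in WT and 9.59 and 8.45 in Mthfd1S+/-, with a correlation of -0.918. In both, Mthfd1S+/- mouse 2 was lowest, and both genes were picked out here after their values were seen. The other leukocyte markers were mixed. Itgam (-0.538) and S100a8 (-0.516) ran against the muscle mean, while Cd79b (0.643), Cd68 (0.579) and Itgax (0.482) ran with it. S100a8 read low, from 3.33 to 3.99, so Ly6g alone is no measure of neutrophils here.

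Adipocyte markers varied most among the lists and did not follow the muscle genes. The mean of 9 measured markers was 0.27, -0.12, 1.07 and -0.34 in WT and -0.52 and -0.37 in Mthfd1S+/-, with 1 marker higher and 8 lower by the means, and its correlation with the muscle mean was -0.278. Car3, carbonic anhydrase of fat and muscle, read 9.41, 7.27, 10.53 and 6.85 in WT and 6.00 and 6.77 in Mthfd1S+/-, high in WT mice 1 and 3 only. Prox1, a transcription factor of lymphatic endothelium, read 6.09, 5.98, 6.23 and 6.14 in WT and 6.65 and 6.36 in Mthfd1S+/-, without overlap and with the higher value in the Mthfd1S+/- mouse that had less muscle RNA. Lyve1, from the same endothelial list, did not share this. It read 8.68, 8.53, 8.92 and 8.54 in WT and 8.76 and 8.99 in Mthfd1S+/-, with overlap and the higher value in mouse 2. Of the 12 endothelial markers, 5 were higher and 7 lower in Mthfd1S+/- by the means.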
